A study of Homo sapiens with 4 samples.

Results

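The genes described here are 35 members of the ATF4 stress response and of amino acid supply, picked by gene symbol from the rows of a deposited expression table that lists 58174 genes. All 35 symbols were found. Of these, 34 reached an FPKM (fragments scaled to transcript length and to library size) of at least 1 in any library and were tested among 15930 genes, and MTHFD2 did not. They were measured in LM3 cells, a line labelled as hepatocellular carcinoma, and in RBE cells, labelled as intrahepatic cholangiocarcinoma. By lipofection, cells received si-FENDRR, a small interfering RNA, or the negative control si-NC, and were taken after 48 h. The series asks what FENDRR, a long noncoding RNA, does to gene expression in primary liver cancer. There was 1 library per line and transfection, so 4 libraries in all, and no value within a line has a replicate. FENDRR itself (ENSG00000268388) was listed at 0 in all 4 libraries, so the libraries are compared by their labels and the knockdown could not be checked.

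ATF4 is a basic leucine zipper transcription factor at the centre of the integrated stress response. Kinases that sense unfolded protein, missing amino acids, haem shortage or viral RNA phosphorylate the translation factor eIF2, which slows general protein synthesis while ATF4 messenger RNA is translated more, through upstream reading frames in its leader. The protein then pairs with C/EBP family partners on C/EBP-ATF response elements and raises genes that import and make amino acids, charge tRNA, and either restore translation or promote cell death. Because much of this control is on translation, ATF4 messenger RNA is not a measure of ATF4 protein. Liver cells handle much of the body's amino acid metabolism, and many carcinomas lean on serine, asparagine and proline synthesis.

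The promoter sites in this paragraph are shown because they are the DNA to which ATF4 and its partners are known to bind, and because 9 members have such a site near their start and 20 do not. Promoter windows from 250 bases before to 50 bases after the RefSeq gene start, on GRCh38.p14, were found for 29 of the 35 members, and none for ALDH1L2, GPT2, NUPR1, PSPH, PYCR1 and SHMT2. The core of the C/EBP-ATF response element was searched as TGATGNAA on both strands, where N is any base. The windows of 9 members held it, each at 1 site, which is 31% of the 29, against 1217 of 27305 genes with a window (4.46%). The members were picked as genes of the ATF4 response, so the higher share follows from the choice and is no test. The cAMP response element, searched as TGACGTCA, was in 1 member's window, that of PPP1R15A, and in 2.25% of all genes' windows. The ER stress element, searched by its full consensus with a free spacer, was in no member's window and in 0.0916% of all. Each site is written 5′ to 3′ on the strand that reads the motif, with the motif in capitals, and the last line is the cAMP response element of PPP1R15A.
AARS: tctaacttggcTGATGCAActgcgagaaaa
ASNS: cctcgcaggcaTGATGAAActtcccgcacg
CEBPG: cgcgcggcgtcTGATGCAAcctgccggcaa
CHAC1: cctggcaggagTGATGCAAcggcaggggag
GARS: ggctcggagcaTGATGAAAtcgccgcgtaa
SLC1A4: ccggctggagaTGATGCAAacgggagccgc
SLC1A5: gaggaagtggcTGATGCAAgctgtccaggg
SLC3A2: ggagcTGATGTAAggagtcctgca
SLC7A1: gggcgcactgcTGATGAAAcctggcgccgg
PPP1R15A: gcctctcttcgTGACGTCAgcacgccgggc

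The sites lay at different distances from the RefSeq start of their gene. Those of CEBPG (chr19:33374071-33374078), GARS (chr7:30594845-30594852), ASNS (chr7:97872469-97872476) and SLC1A5 (chr19:46784904-46784911) were 34, 25, 60 and 89 bases upstream. Those of AARS (chr16:70289686-70289693) and CHAC1 (chr15:40953262-40953269) were farther upstream, at 179 and 201 bases. The SLC1A4 site (chr2:64989392-64989399) touched or overlapped the start, and the SLC7A1 (chr13:29595674-29595681) and SLC3A2 (chr11:62881736-62881743) sites were 7 and 37 bases downstream of it. In the GENCODE annotation, the AARS site was outside the gene, those of CEBPG and SLC1A4 were in introns, that of SLC1A5 was at the edge of an exon, and the remaining 5 were in an exon of a transcript. The PPP1R15A site (chr19:48872363-48872370) was 50 bases upstream of the start. Of the 9 members with the C/EBP-ATF core, 3 were higher in LM3, 1 was higher in RBE and 5 did not pass the test between the lines that is described with the levels. Of the 20 members whose window lacked it, 8 were higher in LM3, 8 were higher in RBE, 3 did not pass and 1 was not tested. Among all tested genes, 32.3% were called higher in LM3 and 26.4% higher in RBE. These counts are small, and a difference between members with and without the core was not tested. A match of letters shows neither binding nor use of a site.

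The libraries were similar in how many genes they detected, from 13437 to 13682 at 1 FPKM or more. The files hold no counts, so the sequencing depth behind a value is unknown. Marker genes separated the lines: the hepatocyte product ALB had FPKM values of 35.7 and 33.3 in LM3 against 0.251 and 0.270 in RBE, and the bile duct keratin KRT7 had 7.21 and 6.02 against 429 and 391. Other markers went against this division, since APOA1 was at or near 0 in all 4 libraries and SERPINA1 reached 56.8 and 82.5 in RBE but under 0.1 in LM3. Of 3 leukocyte markers, PTPRC and CD3E were at 0 to 0.130 FPKM in the 4 libraries and CD68 was at 60.1 and 62.2 in LM3 and at 14.2 and 13.9 in RBE. Of 3 endothelial markers, VWF and CDH5 were at 0 to 0.143 and PECAM1 was at 3.10 and 3.86 in LM3 and at 0.401 and 0.408 in RBE. The fibroblast markers COL1A1 and PDGFRB were at 2.94 and 2.45 and at 1.98 and 1.40 in RBE and under 0.1 in LM3, and COL3A1 was at 1.75 and 1.95 in LM3 and under 0.1 in RBE. The part of other cell types in the results was not tested. Each library comes from a bulk culture, in which a lower level cannot be told apart as fewer expressing cells or as less RNA in each cell.

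Between the lines, the members went in both directions. With limma on log2(FPKM + 1), with terms for line and transfection, 13 of the 34 tested members (38.2%) were higher in LM3 and 12 (35.3%) were higher in RBE at an adjusted p under 0.05, and 9 did not pass. Over all tested genes, 32.3% were called higher in LM3 and 26.4% higher in RBE, so the members' shares lay near the background. The counts by role that follow rest on 3 to 7 members each and are to be read against the same shares. For 28 members (82.4%), both libraries of a line were above both of the other, as they were for 81.7% of all tested genes. The median difference, LM3 minus RBE, was -0.02 on the log2 scale over the members and 0.09 over all genes, and the median size regardless of sign was 0.80 over the members and 0.65 over all genes. The p-values rest on 1 residual degree of freedom and on variance shared across genes, and they measure how alike the gap between the lines was under si-FENDRR and under si-NC. Without the RBE si-FENDRR, LM3 si-NC or RBE si-NC library, 5, 7 and 7 members were called higher in RBE, and over all genes 2674, 3034 and 2640 were, in place of 4201. The labels name no separate cultures within a line, so that spread may be technical. Differences are of log2(FPKM + 1), a scale that shrinks the changes of low genes, and errors are the standard errors of limma over 4 libraries.

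**Figure D1:**
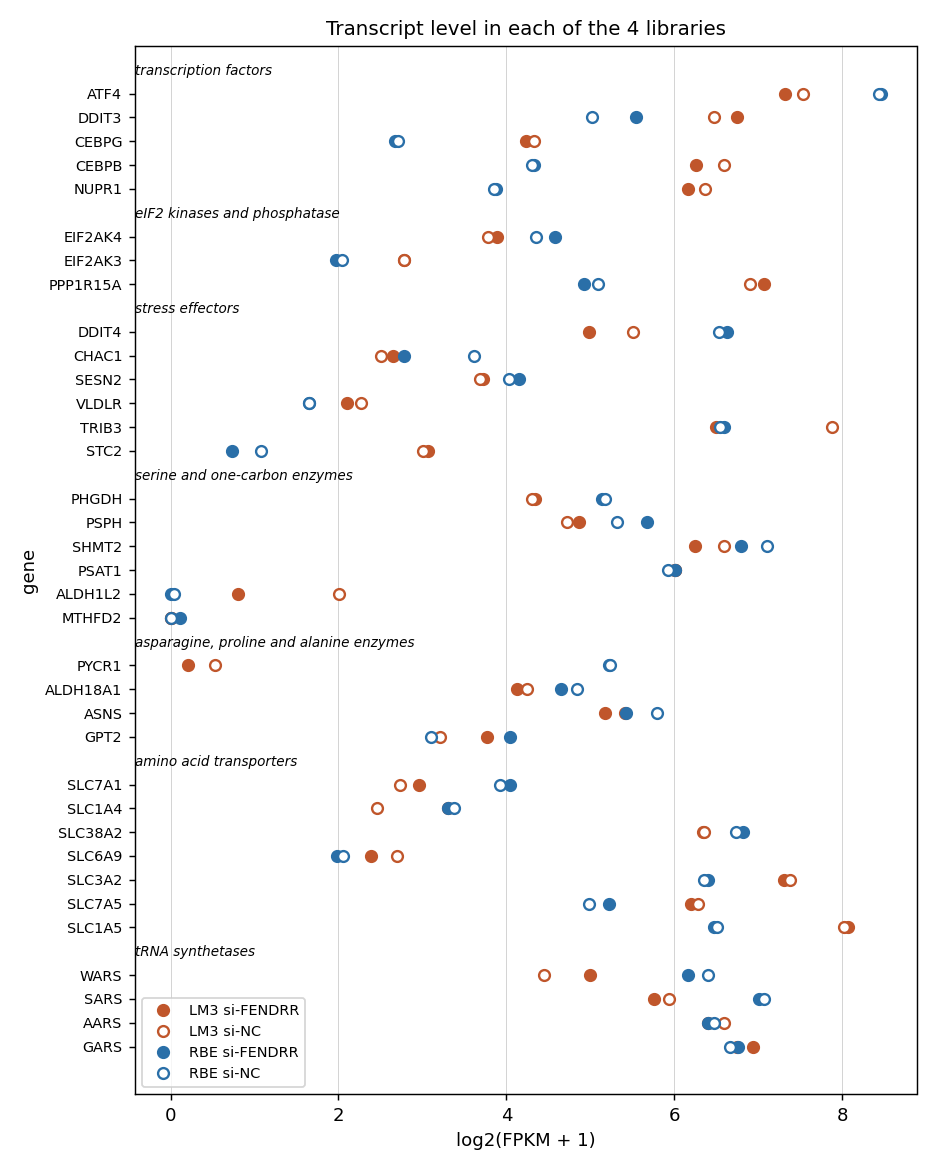
Level of each member as log2(FPKM + 1) in the 4 libraries, grouped by role. Orange symbols are LM3 and blue ones RBE, filled for si-FENDRR and open for si-NC, and symbols with the same value cover each other. The lines stand apart for 28 members, ATF4 is higher in RBE while the other transcription factors are higher in LM3, and TRIB3 stands apart in the LM3 si-NC library only.

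Among the transcription factors, ATF4 was the only member higher in RBE, and its dimer partners and targets DDIT3, CEBPB, CEBPG and NUPR1 were all higher in LM3. ATF4 (ENSG00000128272, chr22:39519695-39522685, plus strand of GRCh38) had LM3 values of 159 FPKM with si-FENDRR and 185 with si-NC, and RBE values of 352 and 345. It was an abundant messenger RNA everywhere, between the 97.8th and the 98.9th percentile of the tested genes of each library, and both RBE libraries lay above both LM3 libraries. The difference was -1.02 ± 0.12 (limma, adjusted p = 0.00509), about 2.02-fold by mean FPKM. DDIT3, which encodes the pro-death factor CHOP, had 106 and 88.1 in LM3 and 45.7 and 31.5 in RBE, in the same order of si-FENDRR and si-NC that is used throughout. Its LM3 libraries were the higher ones, by 1.33 ± 0.12 (limma, adjusted p = 0.0034). CEBPB, a C/EBP partner of ATF4, was at 75.9 and 95.8 in LM3 and at 19.0 and 18.7 in RBE, a difference of 2.12 ± 0.14 (limma, adjusted p = 0.00185). CEBPG, which also dimerises with ATF4 and whose promoter window holds the core motif, was at 17.8 and 19.1 against 5.39 and 5.55 (difference 1.59 ± 0.12, limma adjusted p = 0.00228). The stress-induced chromatin protein gene NUPR1 differed most of the 5, with 70.7 and 81.5 against 13.7 and 13.5 (2.40 ± 0.12, limma adjusted p = 0.00127). In none of these genes did the lines overlap, and the gap between the lines was larger than the gap between the libraries of a line. The call for DDIT3 was lost without the LM3 si-FENDRR, LM3 si-NC or RBE si-NC library (limma adjusted p = 0.0886, 0.0656 and 0.0526). DDIT3 shares exon bases with MARS and MBD6 on the other strand, and MARS was at 66.7 and 55.7 in LM3 and at 78.4 and 67.7 in RBE. The sources used here do not give whether the libraries kept strand information, and a part of these neighbours in the DDIT3 values was not tested.

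The genes that set eIF2 phosphorylation were divided between the lines. EIF2AK3 encodes PERK, the kinase of the endoplasmic reticulum, and was at 5.87 and 5.88 in LM3 and at 2.91 and 3.12 in RBE. Its values were higher in LM3 by 0.78 ± 0.13 (limma, adjusted p = 0.0113). EIF2AK4 encodes GCN2, the kinase that senses uncharged tRNA, and had 13.8 and 12.7 in LM3 and 22.9 and 19.4 in RBE. The lines did not overlap, and RBE was the higher one (difference -0.63 ± 0.12, limma adjusted p = 0.0156). PPP1R15A, whose product GADD34 brings a phosphatase to eIF2 and ends the response, had 133 and 118 in LM3 against 29.5 and 33.0 in RBE. This gene, with the cAMP response element in its window, was higher in LM3 by 1.97 ± 0.13 (limma, adjusted p = 0.00195), about 4.02-fold by mean FPKM. Without the RBE si-FENDRR library the EIF2AK3 call was lost (limma adjusted p = 0.0509), and the EIF2AK4 call was lost without the LM3 si-FENDRR, RBE si-FENDRR or LM3 si-NC library (0.0702, 0.076 and 0.0903).

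Of the 6 stress effectors, STC2 and VLDLR were higher in LM3, DDIT4 was higher in RBE, and TRIB3, CHAC1 and SESN2 did not pass. The shares of all tested genes were 32.3% higher in LM3 and 26.4% higher in RBE. STC2, a secreted glycoprotein gene, had LM3 values of 7.37 and 7.06 FPKM and RBE values of 0.654 and 1.12. It was low in RBE and did not overlap between the lines (2.14 ± 0.17, limma adjusted p = 0.00247). VLDLR, a lipoprotein receptor gene, had 3.28 and 3.82 against 2.13 and 2.14, a smaller gap of 0.54 ± 0.14 (limma, adjusted p = 0.0343). DDIT4 encodes REDD1, an inhibitor of mTORC1, and had 30.7 and 44.6 in LM3 against 97.9 and 91.9 in RBE (-1.34 ± 0.19, limma adjusted p = 0.00805). Both RBE libraries were above both LM3 libraries, which themselves differed. SESN2, a leucine sensor upstream of mTORC1, had 12.1 and 11.9 against 16.7 and 15.4 without overlap, and missed the threshold (-0.39 ± 0.12, limma adjusted p = 0.0504). CHAC1, which degrades glutathione and carries the core motif, had 5.27 and 4.68 in LM3 and 5.88 and 11.2 in RBE. Its RBE si-NC library stood above the others, and the difference of -0.62 ± 0.27 did not pass (limma, adjusted p = 0.124). TRIB3, a pseudokinase that restrains ATF4 and AKT, had 89.6 and 234 in LM3 and 95.5 and 92.1 in RBE, so that 3 libraries were alike and the LM3 si-NC library stood above them (0.62 ± 0.38, limma adjusted p = 0.222).

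Single libraries decided several of these results. DDIT4 was not called without the RBE si-FENDRR or RBE si-NC library (limma adjusted p = 0.0876 and 0.0806), nor was VLDLR without the RBE si-FENDRR, LM3 si-NC or RBE si-NC library (0.109, 0.0692 and 0.108) or with no filter on low values (0.0922). SESN2 passed when only protein-coding genes without shared exons were tested, with a pseudocount of 5, with median-of-ratios scaling or with no transfection term (limma adjusted p = 0.0441, 0.0464, 0.03 and 0.0282). CHAC1 passed without the RBE si-FENDRR library (-1.03, limma adjusted p = 0.0417). For TRIB3, the difference was 1.31 without the LM3 si-FENDRR library (limma adjusted p = 0.0145) and -0.06 without the LM3 si-NC library (0.485).

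Of the 5 tested serine and one-carbon enzymes, PHGDH, PSPH and SHMT2 were higher in RBE, ALDH1L2 was higher in LM3 and PSAT1 did not pass, and of the 4 calls only that for PHGDH held in every alternative. PHGDH, the first and rate-setting enzyme of serine synthesis from glycolysis, was at 19.3 and 18.7 in LM3 and at 34.2 and 35.1 in RBE. The libraries of a line nearly coincided, and RBE was higher (difference -0.83 ± 0.11, limma adjusted p = 0.00734). PSAT1, the next enzyme, was at 63.2 and 63.2 against 63.5 and 59.9, and the lines overlapped (0.04 ± 0.11, limma adjusted p = 0.792). PSPH, the last enzyme, had 28.2 and 25.3 in LM3 and 50.2 and 39.0 in RBE (-0.71 ± 0.12, limma adjusted p = 0.0126). The steps of this short pathway therefore did not move as a unit between the lines. Calls higher in RBE made up 26.4% of all tested genes, and calls higher in LM3 32.3%. The pseudogene PSPHP1, a copy of PSPH, was listed at 8.63 and 8.02 against 17.3 and 19.4, also higher in RBE, and the sources used here do not give how reads were shared between the copies. SHMT2, the mitochondrial enzyme that turns serine into glycine, had 74.7 and 95.5 in LM3 and 110 and 137 in RBE (-0.53 ± 0.10, limma adjusted p = 0.0171). ALDH1L2, which oxidises formyl folate in mitochondria, had 0.740 and 3.01 in LM3 and was listed at 0 and at 0.0304 in RBE (1.38 ± 0.33, limma adjusted p = 0.0294). Its levels were low in every library, and only LM3 si-NC passed 1 FPKM. ALDH1L2 thus entered the test only through a library of the line in which it was called higher. Its listed 0 in RBE can be a failed estimate, so the size of this difference is uncertain.

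MTHFD2, the mitochondrial folate enzyme that is usually among the clearest ATF4 targets in growing cells, was listed at 0 in both LM3 libraries and in RBE si-NC and at 0.0781 in RBE si-FENDRR. A value of 0 in a table without counts can be a failed estimate, so no difference is given. Its neighbour MOB1A was at 19.1 to 24.9 in the 4 libraries, and the related enzyme gene MTHFD2L was at 3.61 and 4.09 in LM3 and at 2.05 and 1.52 in RBE. Of gene families that every cell uses, 1 of 84 ribosomal protein genes (RPL10L), 2 of 39 proteasome genes (PSMA8 and PSMB11) and 0 of 12 RNA polymerase II genes were below 0.1 FPKM in all 4 libraries. PHGDH kept its call in every alternative, and the other called enzymes of the group did not. The PSPH call was lost without the LM3 si-FENDRR, RBE si-FENDRR or LM3 si-NC library (limma adjusted p = 0.097, 0.0774 and 0.131). That for SHMT2 was lost without any of the 4 libraries, at 0.243 and 0.0918 for LM3 si-FENDRR and si-NC and at 0.126 and 0.282 for RBE si-FENDRR and si-NC, and at 0.0577 with no transfection term. ALDH1L2 lost its call without the RBE si-FENDRR or RBE si-NC library (0.245 and 0.238) and with no filter on low values (0.0752).

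For asparagine, proline and alanine, the largest difference of all members was in PYCR1, which encodes a mitochondrial enzyme of the last step of proline synthesis. PYCR1 (ENSG00000183010, chr17:81932384-81942412, minus strand of GRCh38) had LM3 values of 0.152 and 0.439 FPKM and RBE values of 36.2 and 36.5. It was near 0 in LM3, at the 8.14th percentile of the tested genes in the si-NC library, and at the 88.4th in RBE si-NC. The difference was -4.86 ± 0.14 (limma, adjusted p = 0.000663). PYCR1 reached 1 FPKM only in RBE, so it entered the test through the line in which it was called higher. PYCR1 shares exon bases on its own strand with MYADML2, which was at 0.0835 to 0.368 in the 4 libraries. On the other strand it shares them with AC145207.4, at 0 in both LM3 libraries and at 2.55 and 1.61 in RBE, also higher in RBE. A part of these neighbours in the PYCR1 values was not tested. PYCR3, a cytosolic enzyme of the same step, was at 11.3 and 15.6 in LM3 and at 10.4 and 11.1 in RBE, and its difference did not pass (0.28 ± 0.15, limma adjusted p = 0.169). ALDH18A1, which starts proline synthesis from glutamate, was also higher in RBE, with 16.5 and 17.9 against 24.0 and 27.7 (-0.56 ± 0.11, limma adjusted p = 0.0198). ASNS, asparagine synthetase, whose window holds the core motif, had 35.04 and 41.7 in LM3 and 41.9 and 54.7 in RBE. The lines only just failed to overlap, and ASNS did not pass (-0.32 ± 0.11, limma adjusted p = 0.0753), though it did with median-of-ratios scaling (0.0397). GPT2, the mitochondrial alanine transaminase, had 12.6 and 8.26 against 15.5 and 7.58, with overlapping lines (-0.08 ± 0.15, limma adjusted p = 0.669). The ALDH18A1 call was lost without any of the 4 libraries, at limma adjusted p = 0.0927 and 0.0695 for LM3 si-FENDRR and si-NC and at 0.0511 and 0.0828 for RBE si-FENDRR and si-NC.

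Of the 7 amino acid transporters, 4 were higher in LM3 and 2 in RBE, where 32.3% and 26.4% of all tested genes were. SLC7A5 and SLC3A2 encode the light and heavy chains of LAT1, the exchanger that brings in leucine and other large neutral amino acids. SLC7A5 was at 72.5 and 77.0 in LM3 and at 36.4 and 30.7 in RBE (1.14 ± 0.13, limma adjusted p = 0.00547), and SLC3A2 was at 157 and 166 against 83.7 and 80.5 (0.97 ± 0.11, limma adjusted p = 0.00482). Both chains were thus higher in LM3 by about the same amount, with no overlap between the lines. SLC1A5, the glutamine transporter ASCT2, was the highest of the group in LM3, at 267 and 260 FPKM, with 87.6 and 90.1 in RBE. Its libraries were close within each line and 1.56 ± 0.10 apart between the lines (limma, adjusted p = 0.00184). SLC6A9, a glycine transporter, had 4.23 and 5.49 against 2.94 and 3.16 (0.53 ± 0.14, limma adjusted p = 0.0377). SLC7A1, the arginine and lysine carrier, went the other way, at 6.79 and 5.64 in LM3 and 15.5 and 14.2 in RBE (-1.14 ± 0.12, limma adjusted p = 0.00444). SLC38A2, a sodium-coupled transporter of small neutral amino acids, was higher in RBE by a smaller margin, with 80.3 and 80.8 against 112 and 106 (-0.43 ± 0.11, limma adjusted p = 0.0313). SLC1A4, which carries serine and alanine, had 8.91 and 4.52 in LM3 and 8.89 and 9.37 in RBE, and only the LM3 si-NC library was low (-0.45 ± 0.26, limma adjusted p = 0.204).

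Of the transporters with the core motif, SLC3A2 and SLC1A5 were thus higher in LM3, SLC7A1 was higher in RBE and SLC1A4 did not pass. The calls for SLC7A5, SLC3A2 and SLC1A5 were kept in every alternative tried. That for SLC7A1 was lost without the RBE si-FENDRR library (limma adjusted p = 0.0502), and SLC1A4 passed without the LM3 si-FENDRR library (-0.88, limma adjusted p = 0.0329). SLC38A2 was not called without any of the 4 libraries (limma adjusted p = 0.054 and 0.0522 for LM3 si-FENDRR and si-NC, 0.0648 and 0.0513 for RBE si-FENDRR and si-NC), with libraries scaled to their totals (0.0539) or with no filter (0.0589). SLC6A9 was not called without any of the 4 libraries (0.0506 and 0.118 for LM3, 0.204 and 0.167 for RBE), with median-of-ratios scaling (0.0546) or with no filter (0.0901). SLC6A9 also shares exon bases on the other strand with CCDC24, which was at 5.86 and 2.73 in LM3 and at 11.9 and 13.2 in RBE, higher in the line where SLC6A9 was lower. SLC7A5 has a pseudogene copy, SLC7A5P2, listed at 3.86 and 8.22 in LM3 and at 0.512 and 0.581 in RBE, far below the parent gene.

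The 4 tRNA synthetases join amino acids to their tRNA and are raised by ATF4 when these run short. SARS, for serine, had 53.0 and 60.4 in LM3 against 128 and 133 in RBE, and WARS, for tryptophan, had 30.9 and 20.8 against 70.4 and 83.6. Both were higher in RBE without overlap, SARS by a difference of -1.19 ± 0.11 and WARS by one of -1.56 ± 0.23 (limma, adjusted p = 0.00325 and 0.00867). AARS, for alanine, was at 83.7 and 95.2 against 83.4 and 88.2 (0.06 ± 0.11, limma adjusted p = 0.664). GARS, for glycine, was at 122 and 106 against 107 and 100.2 (0.14 ± 0.11, limma adjusted p = 0.322). AARS and GARS, whose windows hold the core motif, overlapped between the lines, and the windows of SARS and WARS do not hold it. Among all tested genes, 26.4% were called higher in RBE. WARS lost its call without the RBE si-FENDRR or RBE si-NC library (limma adjusted p = 0.0647 and 0.0809).

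**Figure D2:**
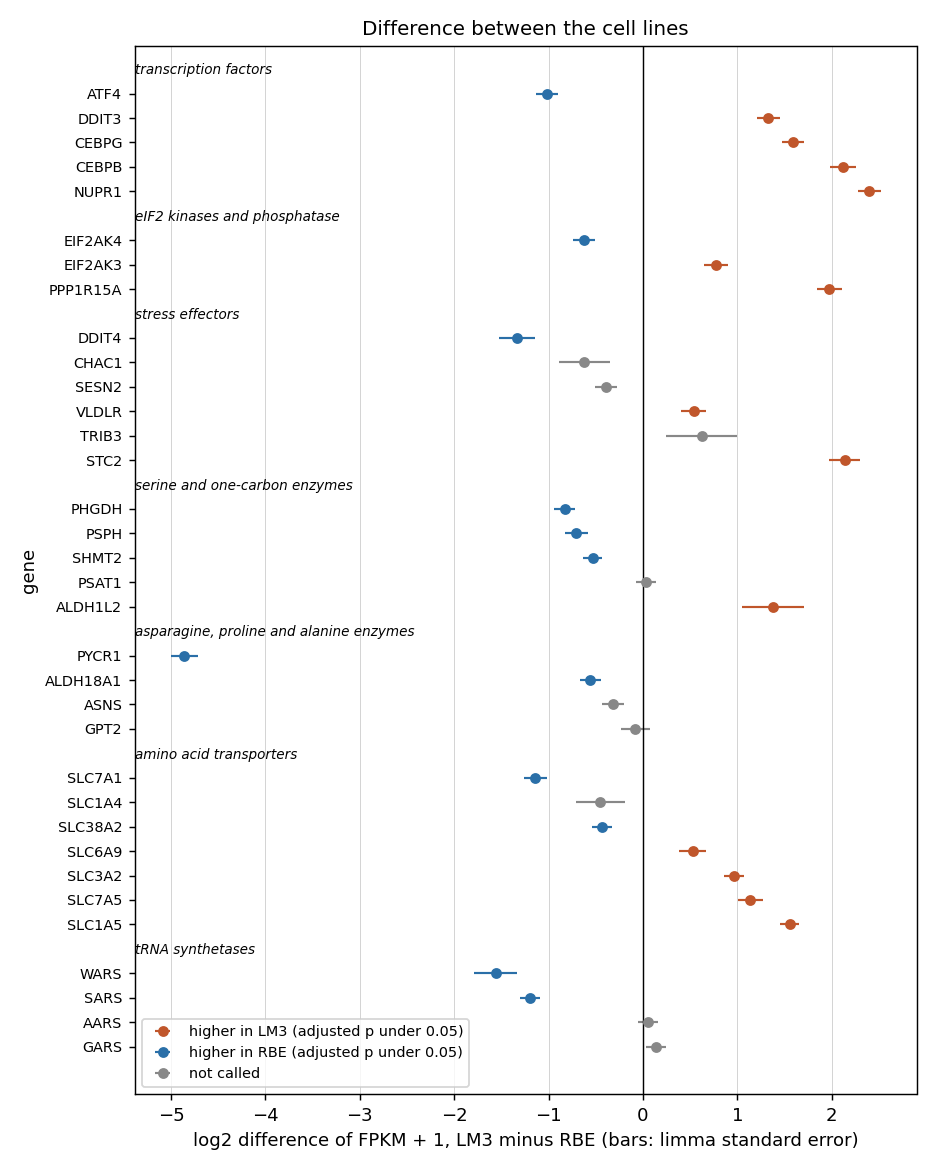
Difference between the lines, LM3 minus RBE, for each of the 34 tested members on the log2(FPKM + 1) scale, grouped by role, with bars of 1 limma standard error. Orange marks members called higher in LM3, blue those called higher in RBE and grey those that did not pass. PYCR1 lies far to the left at -4.86, and NUPR1 at 2.40 farthest to the right.

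Between the transfections, 0 of the 34 members passed the test, and the same was true of all 15930 tested genes (0%, limma on log2(FPKM + 1) over both lines). The smallest adjusted p of a member was 0.959. On data simulated with variances drawn from the variance shared across genes, this test called 0 of 200 genes changed 2-fold. With variances fitted per gene it called 195 of 200, beside 69 unchanged genes. The power of the test at 2-fold thus depended on the variances assumed, and the lack of calls does not show that such changes are absent. At an unadjusted p under 0.05 there were 3 members, DDIT3, GPT2 and SHMT2 (8.82% of the 34), against 657 genes or 4.12% overall. Within LM3, 2 members differed at least 2-fold in FPKM + 1, ALDH1L2 and TRIB3, as did 2.13% of all genes, and within RBE none did, as did 1.75% of all genes. The value was higher with si-FENDRR in both lines for 8 members (23.5%, against 26.9% of all genes) and lower in both for 11 (32.4%, against 21.8%). The other 15 members differed in opposite directions in the lines. The median difference over the members, si-FENDRR minus si-NC, was -0.04 in LM3 and -0.01 in RBE, where all genes had 0 and 0.02.

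**Figure D3:**
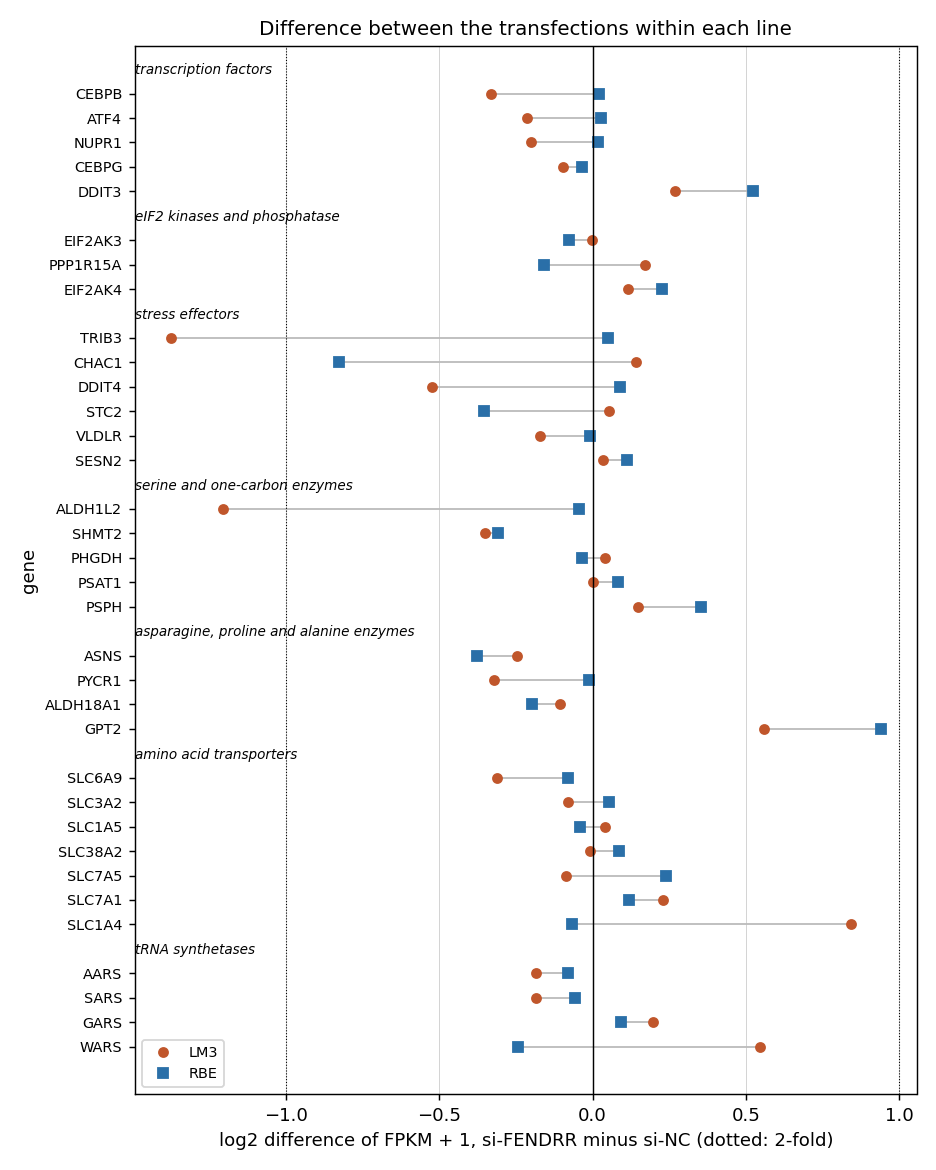
Difference between si-FENDRR and si-NC within each line for the 34 tested members, as log2 of FPKM + 1, with LM3 as orange circles, RBE as blue squares and dotted lines at 2-fold. Each point compares 1 library with 1 library and has no error. TRIB3 and ALDH1L2 in LM3 lie past the lower dotted line, and GPT2 lies to the right in both lines.

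GPT2 (ENSG00000166123, chr16:46884378-46931297, plus strand of GRCh38) had the largest difference of the members with the same direction in both lines. Its FPKM with si-FENDRR was 1.53 times that with si-NC in LM3 (12.6 and 8.26) and 2.04 times in RBE (15.5 and 7.58), so both si-FENDRR libraries were above both si-NC libraries. The difference over both lines was 0.75 ± 0.15 (limma, unadjusted p = 0.00836, adjusted p = 0.959). DDIT3 was also higher with si-FENDRR in each line, 1.21 times in LM3 and 1.45 times in RBE, but the lines are so far apart that all LM3 libraries exceed all RBE libraries (0.40 ± 0.12, limma unadjusted p = 0.034, adjusted p = 0.959). SHMT2 was lower with si-FENDRR, with si-NC values 1.28 times as high in LM3 and 1.24 times in RBE (-0.33 ± 0.10, limma unadjusted p = 0.0337, adjusted p = 0.959). On the other strand of SHMT2, NDUFA4L2 shares exon bases and was at 15.98 and 7.68 in LM3 and at 3.72 and 2.60 in RBE, which is higher with si-FENDRR, where SHMT2 was lower. ASNS was lower with si-FENDRR as well, with si-NC values 1.19 times as high in LM3 and 1.305 times in RBE (-0.31 ± 0.11, limma unadjusted p = 0.0516, adjusted p = 0.959).

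Some differences seen in a single line were larger, but they rest on 1 library against 1. TRIB3 (ENSG00000101255, chr20:362835-397559, plus strand of GRCh38) was 2.62 times as high with si-NC as with si-FENDRR in LM3, a difference of -1.38, and 0.05 apart in RBE. ALDH1L2 was 4.07 times as high with si-NC in LM3, a difference of -1.21 on the log2(FPKM + 1) scale at levels under 4 FPKM, and differed by -0.04 in RBE. CHAC1 was close in LM3 (0.14) and 1.91 times as high with si-NC in RBE (-0.83). SLC1A4 was 1.97 times as high with si-FENDRR in LM3 (0.84) and close in RBE (-0.07). WARS was 1.48 times as high with si-FENDRR in LM3 (0.55) and lower with it in RBE (-0.24). DDIT4 differed by -0.52 in LM3 and by 0.09 in RBE. Whether any of these differences is itself unequal between the lines was not tested, since a model with that term leaves no residual degree of freedom. ATF4 was nearly level, at -0.22 in LM3 and 0.03 in RBE, and its measured targets lay on both sides of 0 in each line. With a rule of 1.5-fold, 3 members qualified in LM3, namely ALDH1L2, SLC1A4 and TRIB3 (7.97% of all genes did), and 2 in RBE, namely CHAC1 and GPT2 (6.27% of all genes).

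By role, the transcription factors had a median difference between the transfections of -0.20 in LM3 and 0.02 in RBE, and the asparagine, proline and alanine enzymes had -0.18 and -0.10. Among the latter, ASNS, ALDH18A1 and PYCR1 were lower with si-FENDRR in both lines and GPT2 was higher, and none passed. The amino acid transporters had medians of -0.01 and 0.05, and only SLC7A1 was higher and only SLC6A9 lower in both lines of the 7. The tRNA synthetases had 0.01 and -0.07, with AARS and SARS lower and GARS higher in both lines. In the serine pathway, PSAT1 and PSPH had the higher value with si-FENDRR in each line and PHGDH did not, at 0.04 in LM3 and -0.03 in RBE.

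The rest of the pathway was read from 9 further lists of genes that are no members, and no gene of any list passed the test between the transfections. Of 26 other tested ATF4 and CHOP partners and targets, 18 were higher in LM3, 3 were higher in RBE and 5 did not pass, with a median difference of 0.74 where all genes had 0.09. CEBPA, a liver C/EBP factor, led them with 81.8 and 93.1 against 2.89 and 2.69 FPKM in RBE (4.54 ± 0.13, limma adjusted p = 0.00065). ATF5, the ATF4 relative, was at 27.8 and 25.3 against 6.07 and 5.86 (1.98 ± 0.12, limma adjusted p = 0.0016). HERPUD1, a gene of ER-associated degradation, was higher in RBE, at 14.4 and 11.01 against 25.9 and 22.6 (-0.89 ± 0.12, limma adjusted p = 0.00757). Among the 34 tested members, 13 were called higher in LM3, with DDIT3, CEBPB, CEBPG and NUPR1 among them. RBE had the higher values for 12 members, which include ATF4 itself, PHGDH, PSPH, PYCR1, SARS and WARS. Most genes of this list, which holds partners as well as targets, were higher in the line with less ATF4 messenger RNA. Of all tested genes, 32.3% were called in that direction. Leaving out the RBE si-FENDRR or RBE si-NC library left 10 calls higher in LM3 in this list.

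Genes for tRNA charging outside the set went in both directions or did not pass. The cytosolic list held 19 genes, which are synthetases and also XPOT, AIMP1 and AIMP2, which are not synthetases. Of these 19, 8 were higher in RBE, 2 were higher in LM3 and 9 did not pass (median -0.28). Of 17 mitochondrial synthetase genes, 10 were higher in RBE, 2 were higher in LM3 and 5 did not pass (median -0.51). Of all genes, 26.4% were higher in RBE, and the median of all was 0.09. IARS, for isoleucine, was at 46.9 and 57.5 in LM3 and at 111 and 112 in RBE (-1.09 ± 0.12, limma adjusted p = 0.00517), and the mitochondrial WARS2 was at 3.42 and 3.32 against 10.4 and 9.40 (-1.32 ± 0.12, limma adjusted p = 0.0035). Of 16 other transporters, 9 were higher in LM3, 2 were higher in RBE and 5 did not pass (median 0.60), where 32.3% of all genes were higher in LM3. SLC7A11, the cystine carrier of system xc and an ATF4 target that also stands in the list of ATF4 targets, was at 21.7 and 21.0 against 0.861 and 0.918 (3.56 ± 0.12, limma adjusted p = 0.000778). SLC38A5, a glutamine carrier, was at 20.5 and 20.8 against 0.0323 and 0.0518 (4.38 ± 0.13, limma adjusted p = 0.00065). SLC6A6, which takes up taurine, was at 49.8 and 30.0 against 9.44 and 9.24 (1.94 ± 0.21, limma adjusted p = 0.00445).

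Amino acid enzymes and sensors outside the set were divided. The counts in this paragraph stand beside 32.3% of all tested genes called higher in LM3 and 26.4% called higher in RBE. Of 20 other amino acid enzymes, 9 were called higher in LM3, OAT among them, and 6 in RBE. OAT, which links ornithine to proline and glutamate, was at 15.8 and 12.9 in LM3 and listed at 0 in both RBE libraries, which can be a failed estimate, so no difference is given. GLUL, glutamine synthetase, was at 113 and 105 against 26.5 and 26.8 (1.99 ± 0.11, limma adjusted p = 0.00144), and the liver-type glutaminase GLS2 was at 0.0178 and 0.0224 against 6.33 and 5.70 (-2.78 ± 0.14, limma adjusted p = 0.00127). Of 13 other serine, glycine and folate genes, 3 were higher in LM3 and 4 in RBE, among them GLDC, the glycine decarboxylase, at 0.0468 and 0.0801 against 9.99 and 5.72 (-3.02 ± 0.23, limma adjusted p = 0.00246). MTHFD1L, which acts after MTHFD2 in mitochondria, was at 5.76 and 6.05 against 18.8 and 21.3 (-1.61 ± 0.12, limma adjusted p = 0.00232). In the list of 19 mTORC1 sensing genes, 6 were higher in LM3 and 3 in RBE, and the SESN2 relatives SESN3 and SESN1 were at 0.0725 and 0.109 and at 1.67 and 1.65 in LM3, and at 9.03 and 9.53 and at 11.5 and 12.4 in RBE. Both sestrins were called higher in RBE (limma, adjusted p = 0.000953 and 0.00144). Of 19 genes of the eIF2 machinery, 4 were higher in LM3, 5 were higher in RBE and 10 did not pass.

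The arms of the unfolded protein response that run through XBP1 and ATF6 had 9 of 18 genes higher in LM3 and 5 in RBE (median 0.36). The shares of all tested genes were 32.3% and 26.4%, with a median of 0.09. XBP1, the factor spliced by IRE1, had LM3 values of 34.4 and 68.9 FPKM and RBE values of 60.8 and 133, so that the si-NC library was the higher one in each line. Its difference between the transfections was -0.98 in LM3 and -1.12 in RBE, and it was the only gene of the 9 lists to differ at least 2-fold within a line, in RBE (-1.05 ± 0.11 over both lines, limma adjusted p = 0.783). DDIT3, which is also controlled by these arms, had the opposite sign, and PDIA6, a chaperone gene of the endoplasmic reticulum, differed by -0.09 and -0.15. NARS, which charges tRNA with asparagine, was at 97.8 and 49.1 in LM3 and at 67.9 and 60.3 in RBE, just under 2-fold higher with si-FENDRR in LM3 (0.98) and 0.17 higher in RBE (0.57 ± 0.23, limma adjusted p = 0.959). LAMTOR1, a subunit of the lysosomal platform for mTORC1, was at 89.0 and 67.0 in LM3 and at 89.1 and 54.6 in RBE, higher with si-FENDRR in both (0.55 ± 0.13, limma adjusted p = 0.959). None of these passed the test over all genes.

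**Figure D4:**
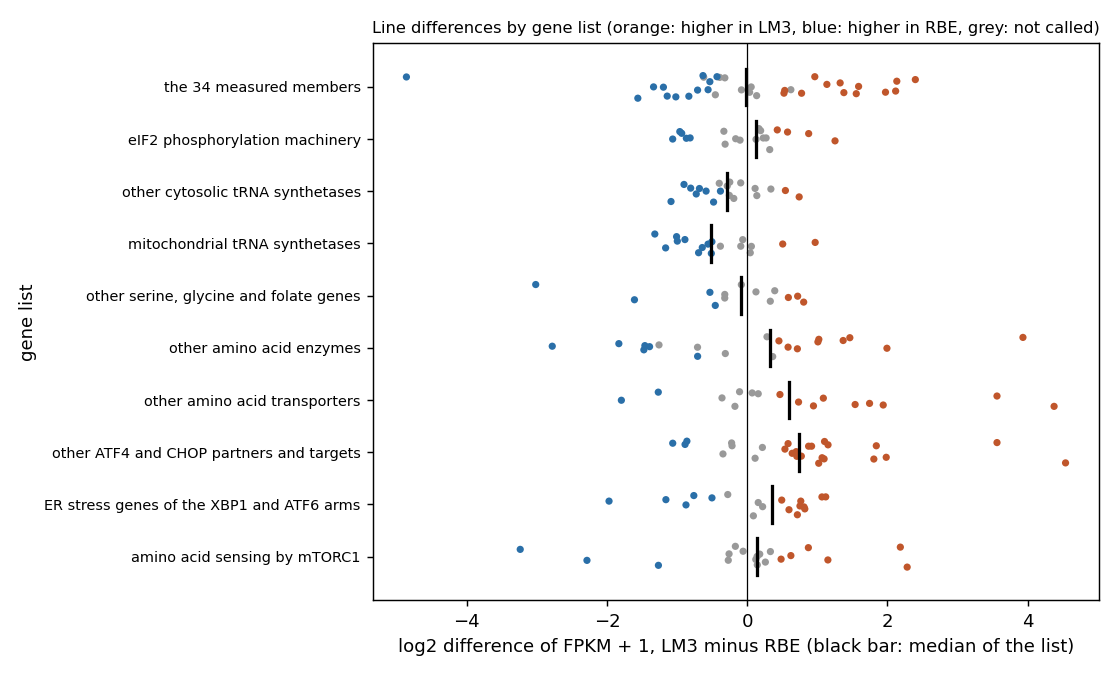
Difference between the lines for every tested gene of the 34 members and of 9 further lists, as log2 of FPKM + 1, LM3 minus RBE. Each point is a gene, orange where called higher in LM3, blue where called higher in RBE and grey where not called, and the black bar is the list's median. The bars lie left of 0 for both lists of synthetases (-0.28 and -0.51), of which the cytosolic one also holds XPOT, AIMP1 and AIMP2. They lie right of 0 for the transporters (0.60) and the further ATF4 and CHOP genes (0.74). SLC7A11, NARS and CTH stand in 2 lists each.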

How the data were processed

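Transcript levels were deposited by the authors as FPKM, 1 column for each of 4 libraries, per the file headers. The submitters' processing notes name FastQC, HISAT2 and the hg38 build. The sources used here give no versions, FPKM program, annotation or handling of ambiguous reads. The single-library files held the same values as the table in 4 of 4 cases. Low FPKM values were within 0.02 of whole multiples of a read in only 10.2% to 16.2% of cases, so reads were not recovered and no count test was run. Of the listed genes, 57836 were found in GENCODE release 29, which gave coordinates, gene types and exon overlaps. From the FPKM, log2(FPKM + 1) was fitted with limma 3.58.1 in R 4.3.3 (line and transfection terms, trended variance, 1 residual degree of freedom), over genes that reached 1 FPKM in any library, with Benjamini-Hochberg adjustment at 0.05. Genes near 0 in 1 line could enter this fit through the other line alone. Within a line, genes at least 2-fold apart in FPKM + 1 were counted, with no test. On simulated data, how many changed genes were recovered depended on the variances assumed. With variances drawn from the variance shared across genes, 0 of 200 genes changed 2-fold were called for either term. At 4-fold, 167 were called for line and 166 for transfection, beside 9 and 19 unchanged genes. With variances fitted per gene, 195 to 200 were called at each fold, beside 43 to 106 unchanged genes, which is beyond the nominal share. Promoter windows were those of RefSeq. The members, gene lists and rules were chosen with earlier results of these data known. From each further list, up to 3 genes with the largest line difference and up to 2 with the largest transfection difference of the same sign in both lines could be named. Neighbours, copies and markers are named because a value turns on them. Alternatives changed the scaling, pseudocount, filter and model terms, or left out a library. Fits without a library had a line term only, so the lone library of a line was assumed to vary like those of the other line. The restriction to protein-coding genes without shared exons was added after seeing the data.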

Additional observations from a re-analysis of the deposited data

How the results depend on the processing

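Of the 25 members called between the lines, 12 kept their call in every alternative in which they were tested, namely ATF4, CEBPB, CEBPG, NUPR1, PPP1R15A, STC2, PHGDH, PYCR1, SLC7A5, SLC3A2, SLC1A5 and SARS, and 20 did in the 8 alternatives that use 4 libraries, where tested. No called member changed direction. How many of all called genes kept their call in the same way was not counted, so these counts show no trait of the members. With a mean FPKM of at least 5 required, 8 members were called higher in LM3. There, ALDH1L2, EIF2AK3, SLC6A9, STC2 and VLDLR, which are called in the main fit, were not tested. Over all genes, 3068 were higher in LM3 and 2343 in RBE under this rule. Leaving out 1 library at a time gave 5 to 8 members higher in RBE, 2933 to 3946 genes higher in LM3 and 2640 to 3034 higher in RBE, and 10 to 13 further ATF4 and CHOP genes higher in LM3. The lowest of these counts came without the RBE si-FENDRR or the RBE si-NC library. Within LM3, 1 member was at least 2-fold apart with a pseudocount of 5. Within RBE, 1 was with a pseudocount of 0.1, and 2 were at least 1.5-fold apart. The median transfection difference of the members, -0.05, was -0.0826 with median-of-ratios scaling. Among members not called, the line difference with median-of-ratios scaling was -0.0593 for PSAT1 and -0.0373 for AARS. Leaving out single libraries, it ranged from -0.0649 to 1.31 for TRIB3, from -0.00644 to 0.0769 for PSAT1, from -0.55 to 0.39 for GPT2 and from -0.0340 to 0.149 for AARS. The cause was not tested. No alternative called a member between the transfections, including the fit with no replicate block, that is, with no term for line, which called 0. Without counts, what depth allows for low genes such as ALDH1L2 and MTHFD2 is unknown.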
